A study of Gallus gallus with 2 samples.

Results

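Contacts between different large chromosomes were counted in Capture Hi-C (CHi-C) libraries of chick limb buds. CHi-C joins DNA fragments that lie near each other in a crosslinked nucleus, enriches the fragments of a chosen locus with probes (here the HoxD locus on chromosome 7) and sequences both mates of each joined pair. The probes did not target the chromosomes described here, so these read pairs are the unenriched background of the libraries. There was 1 library from whole hindlimb buds and 1 from whole forelimb buds of wild-type White Leghorn embryos at Hamburger-Hamilton stage HH20, with no replicate, so a comparison of hindlimb with forelimb compares 2 libraries and not the 2 tissues. A whole bud holds several cell types, and contact data carry no marker by which the tissue labels could be checked.

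A read pair was taken when both mates had a mapping quality (the aligner's score of how surely a read is placed) of 30 or more and lay on different chromosomes among chr1, chr2, chr3, chr5, chr6, chr8, chr9 and chr10 of assembly galGal5. The captured chr7, chr4 and the other chromosomes were not included. This left 2614173 hindlimb and 2284355 forelimb pairs. They were 7.46% (95% interval 7.45 to 7.47, exact Clopper-Pearson) of the 35045660 hindlimb pairs that passed the quality limit, and 7.26% (7.25 to 7.27) of the 31468978 forelimb pairs. Of the pairs joining any 2 chromosomes they made up 22.3% in the hindlimb and 21.7% in the forelimb library. The 8 chromosomes form 28 chromosome pairs and were divided into 314 bins of 2 Mb, which form 39269 bin pairs between chromosomes. All intervals are at 95% and cover counting error only.

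Chromosomes occupy territories in the interphase nucleus, and contacts between them arise mainly where territories touch. In many species the telomeres or the centromeres of different chromosomes gather during part of the cell cycle, and active, gene-rich chromatin tends to meet other active chromatin. The chick karyotype combines a few large chromosomes with many gene-rich microchromosomes, which lie towards the middle of the nucleus, while the largest chromosomes lie more at its edge.

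The smaller of the 8 chromosomes had a larger share of their contacts with other chromosomes, and more of them per Mb. Of all mates on chr1, which spans 196.2 Mb in these files, 27.7% in the hindlimb and 27.7% in the forelimb library had their partner on another chromosome. On chr10, which spans 20.4 Mb, it was 45.8% in the hindlimb and 46.7% in the forelimb library. The 6 others lay between these values in the order of their length. These shares count partners on any other chromosome, the captured chr7 included. Per Mb, chr10 had 12898 mates paired with the other 7 in the hindlimb and 11182 in the forelimb library, against 6600 and 5779 on chr1. The other 7 span more sequence for chr10 than for chr1, which neither the shares nor these values allow for. Only the totals among the 8 were allowed for in what follows. The expected number of read pairs was the product of 1 factor per chromosome (or per bin), fitted so that each chromosome (or bin) kept its own total of contacts with the others.

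With chromosome totals allowed for, chr9 and chr10 met each other most, and the small chromosomes met chr1, chr2 and chr3 least. Chr9 and chr10 were joined by 15829 hindlimb pairs, against 13063 expected, a ratio of 1.21 (log2 0.28, interval 0.25 to 0.30), and by 13801 forelimb pairs, a ratio of 1.23 (log2 0.30, 0.28 to 0.33). The next 3 pairs were chr6 with chr9 (log2 ratio 0.21 in hindlimb, 0.19 in forelimb), chr8 with chr9 (0.15 and 0.14) and chr8 with chr10 (0.13 and 0.15). All of these join the smaller chromosomes of the set. At the other end, chr1 and chr9 had a log2 ratio of -0.09 in hindlimb and -0.08 in forelimb, from 80666 and 70155 pairs. Chr3 with chr10 had -0.07 in each library, chr2 with chr9 likewise -0.07 in each, and chr3 with chr9 -0.06 in hindlimb and -0.07 in forelimb.

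**Figure D1:**
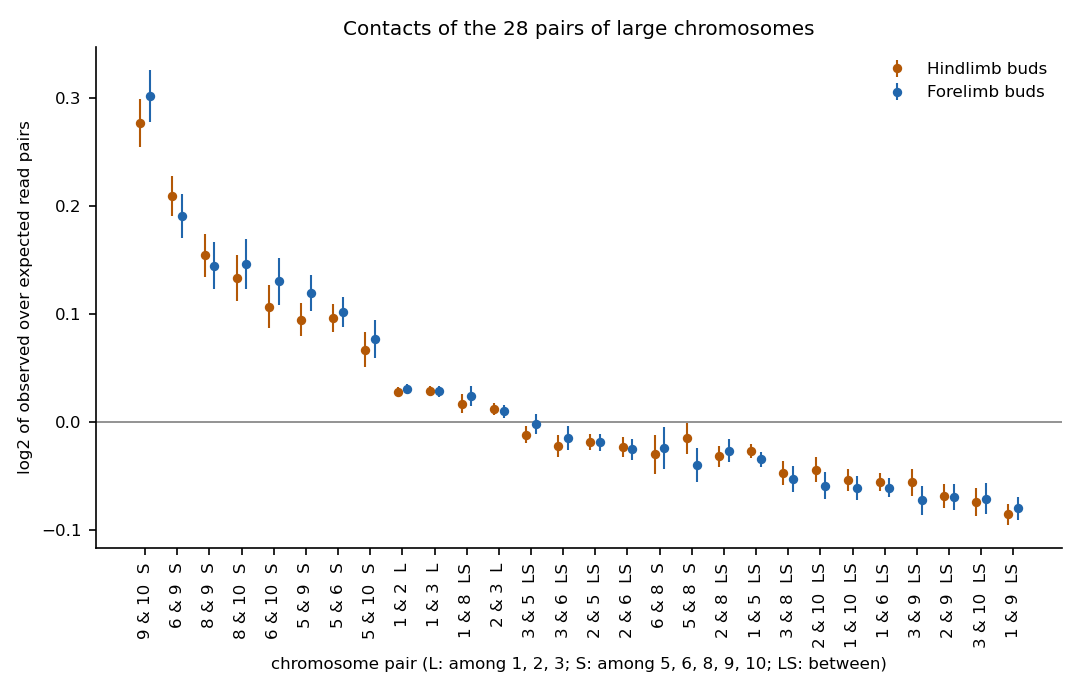
Log2 of observed over expected read pairs for the 28 chromosome pairs (horizontal axis, ordered by the mean of both libraries), in the hindlimb (orange) and the forelimb library (blue), with error bars showing 95% Poisson intervals of counting error. The pair of chr9 and chr10 stands highest at 0.28 and 0.30, 12 pairs lie above 0 in both libraries, and the points of both libraries overlap in their intervals for every pair.

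Of the 28 pairs, 12 were above 1 with both intervals and 15 below 1 with both intervals. The 3 pairs among chr1, chr2 and chr3 were all above 1, and 8 of the 10 pairs among chr5, chr6, chr8, chr9 and chr10 were too, with chr5-chr8 and chr6-chr8 below 1. Of the 15 pairs that join a chromosome of each class, 13 were below 1 with both intervals and 1, chr1-chr8, was above 1 (log2 0.02 in each library). Summed by class, the smaller chromosomes had a ratio of 1.07 among themselves in each library, the 3 largest 1.02 in each, and pairs between the classes 0.976 in hindlimb and 0.975 in forelimb. Each chromosome keeps its total in the fit, so these 3 sums are not separate results, and any 1 of them fixes the others. These values depend on how the expectation is set. The plain product of the totals, scaled to the same sum, gave 0.837 among the smaller chromosomes in each library and a mean log2 ratio of -0.13 for chr9-chr10. That product leaves room for contacts of a chromosome with itself, which are not among these pairs, and so expects too few contacts among the largest chromosomes and too many among the smallest. Totals with every chromosome in place of those among the 8 gave 0.889 in hindlimb and 0.885 in forelimb among the smaller chromosomes. This too was an unfitted product scaled to the same sum, from totals without contacts of a chromosome with itself.

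In no chromosome pair did a difference between hindlimb and forelimb pass the threshold. The log2 ratio of hindlimb over forelimb lay between -0.03 and 0.02, and 0 of 28 pairs (0%) passed an adjusted p of 0.05 (two-sided exact binomial test, Benjamini-Hochberg over 28, lowest adjusted p = 0.475). At an unadjusted p under 0.05 there were 2, chr5-chr8 with p = 0.0248 and chr5-chr9 with p = 0.0343 in the same exact test. A Fisher exact test of the raw counts, which does not allow each library its own chromosome totals, called 7 of 28 pairs, with log2 ratios of the shares between -0.01 and 0.05.

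Chromosome ends met the ends of other chromosomes more often than their totals predict. An end was the first or last 2-Mb bin of a chromosome (the last bins span 1.30 to 2.42 Mb), which gives 16 ends. Pairs of ends of different chromosomes held 14787 hindlimb read pairs, a ratio of 1.42 to expected (1.40 to 1.44), and 12803 forelimb read pairs, a ratio of 1.44 (1.41 to 1.46). The difference between the libraries was within counting error (log2 hindlimb over forelimb -0.02, interval -0.05 to 0.01, two-sided exact binomial p = 0.237). An end with an interior bin had a ratio of 0.973 in hindlimb and 0.972 in forelimb, and 2 interior bins had 1.00 in each library. Each bin keeps its total in the fit, so both of these values follow from the ratio of end pairs and are no separate result. With each of the 8 chromosomes left out in turn, the ratio for end pairs lay between 1.35 and 1.48 in hindlimb and between 1.37 and 1.51 in forelimb.

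Of these end pairs, 43 had a ratio of 1.5 or more in both libraries, which is 38.4% of them, against 0.662% of all bin pairs. None had a ratio of 0.667 or less in both, against 0.27% of all bin pairs, a share so low that their absence here says little. The intervals of both libraries lay above 1 in 62 end pairs, or 55.4%, against 3.27% of all bin pairs, and below 1 in 2. Single end pairs ranged from 0.713 to 3.35 in hindlimb and from 0.642 to 3.88 in forelimb. Most end bins also had more of their contacts with other chromosomes in general. Set against the median of the interior bins of its own chromosome, a comparison added after seeing the data, this share was higher at 15 of the 16 ends in hindlimb, by a median of 4.11 percentage points over the 16 (-0.870 to 11.2), and at 14 in forelimb, by 3.58 (-1.35 to 10.7). The exceptions were on chr10, its last end in both libraries and its first end in forelimb. The fitted totals take up these differences, and the expectation for end pairs already contains them.

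The strongest end pair joined the last bins of chr1 (chr1:194000001-196202157) and chr2 (chr2:148000001-149560324), with 314 hindlimb read pairs (ratio 3.35, 2.99 to 3.74) and 320 forelimb read pairs (3.88, 3.47 to 4.33). No single cell of 100 kb by 100 kb held most of these read pairs, with at most 7 in hindlimb and 10 in forelimb. How evenly they were spread over the bins was not tested. The first bins of chr9 and chr10 followed with 159 and 151 read pairs and ratios of 2.55 in hindlimb and 2.97 in forelimb. The last bins of chr2 and chr3 had 2.48 and 2.58, the last bins of chr5 and chr6 2.36 and 2.48, and the first bins of chr5 and chr10 2.15 and 2.40. All 5 pairs joined a first end to a first end or a last end to a last end. Of all end pairs, 28 are of the former kind, 28 of the latter, and 56 join a first to a last end. Next highest, the last end of chr1 with the first end of chr10 (2.04 and 2.38) joined a last end to a first end. At 1.5 or more in both libraries were 32.1% of first-first pairs, 32.1% of first-last pairs and 57.1% of last-last pairs.

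The 5 lowest end pairs joined the first end of one chromosome to either end of another, and 4 of the 5 held an end of chr3. Most end pairs hold a first end, since only 28 join a last end to a last end, against 28 first-first and 56 first-last pairs. Each end of chr3 takes part in 14 end pairs. Whether the 5 lowest pairs depart from these numbers was not tested. The last end of chr3 with the first end of chr5 had 69 read pairs in hindlimb and 50 in forelimb (ratios 0.763 and 0.642). With the first end of chr10 it had 53 and 39 (0.777 and 0.665). The first end of chr3 with the first end of chr2 had 0.863 and 0.648, and with the last end of chr2 0.713 and 0.794. The first end of chr8 with the last end of chr10 had 0.809 and 0.710. Next lowest, the last end of chr3 with the last end of chr10 (0.829 and 0.724) joined a last end to a last end. In no end pair did a difference between hindlimb and forelimb pass the threshold (lowest adjusted p = 0.920 in two-sided exact binomial tests over all end pairs, with 1 at an unadjusted p under 0.05).

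**Figure D2:**
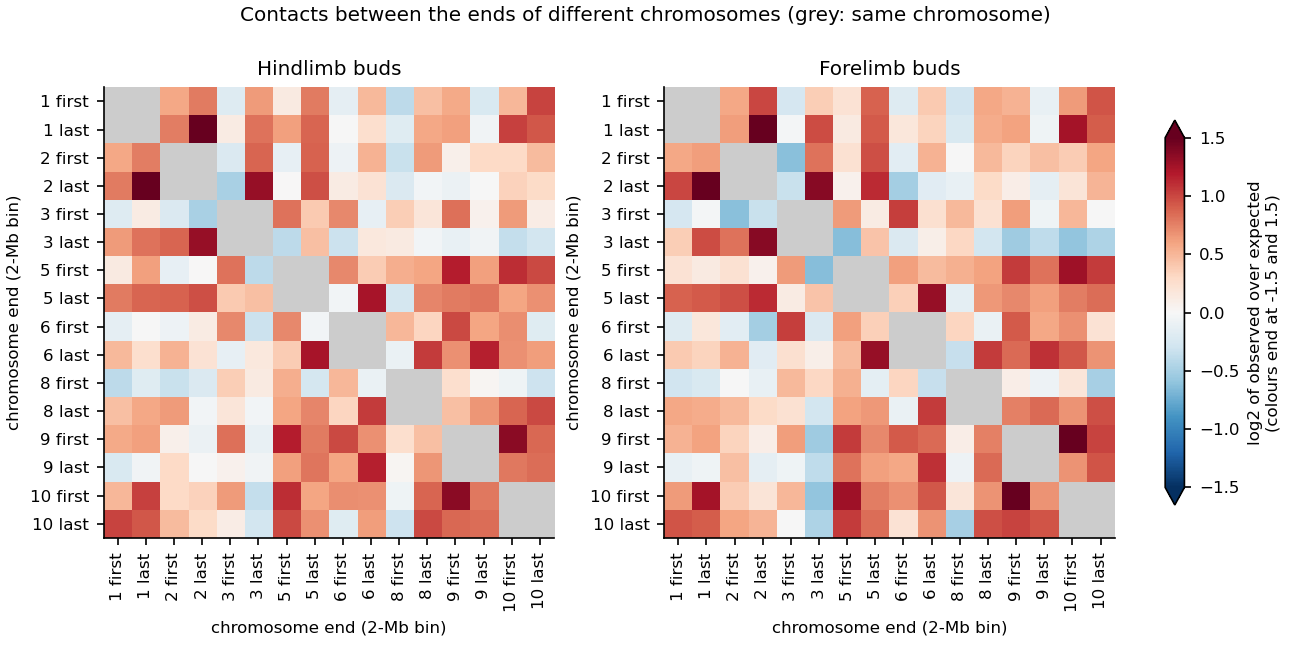
Log2 of observed over expected read pairs for each pair of chromosome ends, with the first and last 2-Mb bin of each chromosome along both axes, in the hindlimb (left) and the forelimb library (right), red above and blue below expected, and grey for ends of 1 chromosome. The darkest square in both libraries joins the last ends of chr1 and chr2 (ratio 3.35 and 3.88). The row of the first end of chr8 is pale, with ratios of 1.01 and 1.02 over all its end pairs, which lie on both sides of 1.

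The ends were not alike. Summed over its 14 possible partners, each end had a ratio above 1 with its interval in both libraries, except the first end of chr8. That end had 1.01 in hindlimb (0.950 to 1.06) and 1.02 in forelimb, with 0 preferred partners. Its single pairs differed, with 1.46 and 1.44 for the first end of chr5 but 0.809 and 0.710 for the last end of chr10. The highest sums were those of the last end of chr5 (1.62 in hindlimb, 1.67 in forelimb, 10 of 14 pairs at 1.5 or more in both libraries), the first end of chr10 (log2 ratio 0.68 and 0.74, 8 of 14 pairs) and the last end of chr1 (1.59 and 1.61). Both ends of chr3 were low, with log2 ratios of 0.26 and 0.20 at its first end and of 0.30 and 0.23 at its last end. Last ends met last ends with a ratio of 1.61 in hindlimb and 1.64 in forelimb. First ends met first ends with 1.37 and 1.39, and last ends with 1.33 and 1.34. All first bins span 2 Mb but the last bins 1.30 to 2.42 Mb, and the part of bin length in this contrast was not tested.

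Groups of ends drawn up after these values were seen are given as a description. Both ends of chr1 and chr2 and the last end of chr3 met each other with a ratio of 1.98 in hindlimb and 2.05 in forelimb. The first ends of chr3, chr5, chr6, chr8, chr9 and chr10 met each other with 1.68 and 1.67. These sets met one another with 1.06 in each library. The last ends of chr5, chr6, chr8, chr9 and chr10 had 1.83 and 1.86 among themselves, and all 10 of their pairs were at 1.5 or more in both libraries. Because the groups were chosen from the same values, no test was made.

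Summed over all ends, the excess was largest in the outermost stretch. Measured in steps of 500 kb, positions within 0.5 Mb of an end met other such positions with a ratio of 2.34 in hindlimb (1202 read pairs, 2.21 to 2.47) and 2.54 in forelimb (1116 read pairs, 2.39 to 2.69). The ratio was 1.46 in hindlimb and 1.59 in forelimb at 0.5 to 1 Mb, 1.19 and 1.29 at 1 to 1.5 Mb, and 1.08 and 1.10 at 1.5 to 2 Mb. A small excess remained further in, with 1.05 and 1.02 at 2 to 3 Mb. At 3 to 4 Mb the ratio was 1.06 in hindlimb (1.03 to 1.10) and 1.06 in forelimb (1.02 to 1.10). Between 4 and 6 Mb it was 0.993 and 1.00. In the outermost step, 13 of the 16 ends had read pairs, and 64 of the 73 end pairs with an expectation were above 1 in each library. The expectation of these 73 pairs together was 514 read pairs in hindlimb and 440 in forelimb, so each single count is small. The share above 1 among all position pairs was not computed. In no step did a difference between the libraries pass the threshold (lowest adjusted p = 0.203 over 8 two-sided exact binomial tests).

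**Figure D3:**
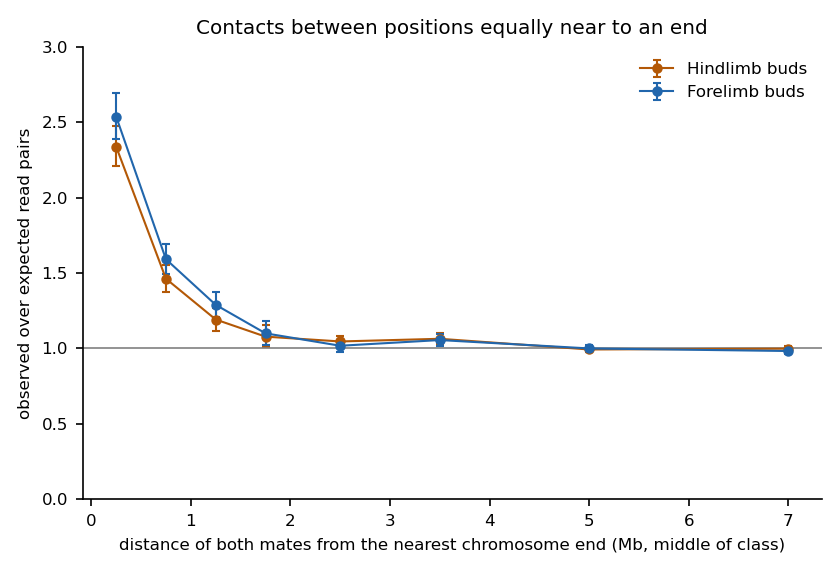
Observed over expected read pairs (vertical axis) between positions on different chromosomes that lie at the same distance class from their nearest chromosome end (horizontal axis, in Mb), in the hindlimb (orange) and the forelimb library (blue), with 95% Poisson intervals of counting error. The ratio is 2.34 and 2.54 in the outermost 0.5 Mb and near 1 beyond 2 Mb.

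Chromosome ends hold repeats, which can misplace reads, and the part of misplaced reads in the excess was not tested. With a mapping quality of 40 or more the outermost step had a ratio of 2.28 in hindlimb and 2.43 in forelimb, and with read pairs of the same 2 fragments counted once it kept 2.34 and 2.54. An end met bins 2 to 4 Mb from an end with 1.09 in hindlimb and 1.10 in forelimb, bins 4 to 8 Mb away with 1.05 and 1.06, and bins more than 16 Mb from any end with 0.938 and 0.936. Because bin totals are kept, the excess among ends has to be offset by fewer contacts of ends with other bins.

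The highest of the bins inside the chromosomes met ends with ratios inside the range of the ends themselves. Over the 16 ends the ratio with all ends of other chromosomes lay between 1.01 and 1.62 in hindlimb, with a median of 1.46. In forelimb it lay between 1.02 and 1.67, with a median of 1.501. Among the 298 interior bins the ratio with all ends of other chromosomes had a median of 0.921 in hindlimb and 0.924 in forelimb, and it was highest for chr3:104000001-106000000, which lies 5.30 Mb from the end of chr3. This bin had 2495 hindlimb read pairs with ends (ratio 1.49, 1.43 to 1.55) and 2143 forelimb read pairs (1.49). Its ratio was above the median of the ends in hindlimb and below it in forelimb. The last bin of chr3 itself, which was low among the ends, had 1.23 in hindlimb and 1.17 in forelimb. The next highest were chr3:2000001-4000000 (1.41 and 1.43) and chr1:76000001-78000000 (1.36 in hindlimb and 1.35 in forelimb), which lies 76 Mb from the nearest end. These bins were picked for their values. Gene content, repeats and centromeres of galGal5 were not used here, so what these bins hold is not given.

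Over all 39269 bin pairs, 260 were preferred (a ratio of 1.5 or more in both libraries, 0.662%) and 106 were avoided (0.667 or less in both, 0.27%). The expected count had a median of 63.6 in hindlimb and 55.7 in forelimb, which sets the counting error of a single bin pair. Of the bin pairs at 1.5 or more in the hindlimb library alone, 470 in number, 55.3% were so in the forelimb library too, and of the 533 in the forelimb library 48.8% were so in the hindlimb library. For pairs at 0.667 or less the shares were lower, 13.9% of 764 in hindlimb and 10.9% of 972 in forelimb. Most such pairs of 1 library were thus not so in the other. For comparison, of all 39269 bin pairs 533 were at 1.5 or more in forelimb and 470 in hindlimb. At 0.667 or less there were 972 in forelimb and 764 in hindlimb.

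Preferred bin pairs gathered at the last parts of chr1, chr2 and chr3 and among the small chromosomes. In the last 20 Mb of chr1, chr2 and chr3, a stretch chosen after the maps were seen, 105 of 341 bin pairs (30.8%) were preferred and 0 avoided. Over all bin pairs the shares were 0.662% and 0.27%, so the absence of avoided pairs says little. Among chr5, chr6, chr8, chr9 and chr10, 82 of 2766 bin pairs (2.96%) were preferred. Of these 82, 26 were end pairs, of which this class has 40, so the share is not separate from the result at ends. Among chr1, chr2 and chr3, 6 of the 127 preferred bin pairs were end pairs, of which that class has 12. Chr9 with chr10 had 17 of 120 (14.2%), chr1 with chr3 had 58 of 5488 (1.06%), and 6 chromosome pairs, each joining chr1, chr2 or chr3 to chr6, chr8 or chr9, had 0. Beside the 38.4% among end pairs, 88 of 4172 pairs of an end with an interior bin (2.11%) and 129 of 34985 pairs of interior bins (0.369%) were preferred. Avoided were 51 pairs of an end with an interior bin (1.22%) and 55 pairs of interior bins (0.157%).

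**Figure D4:**
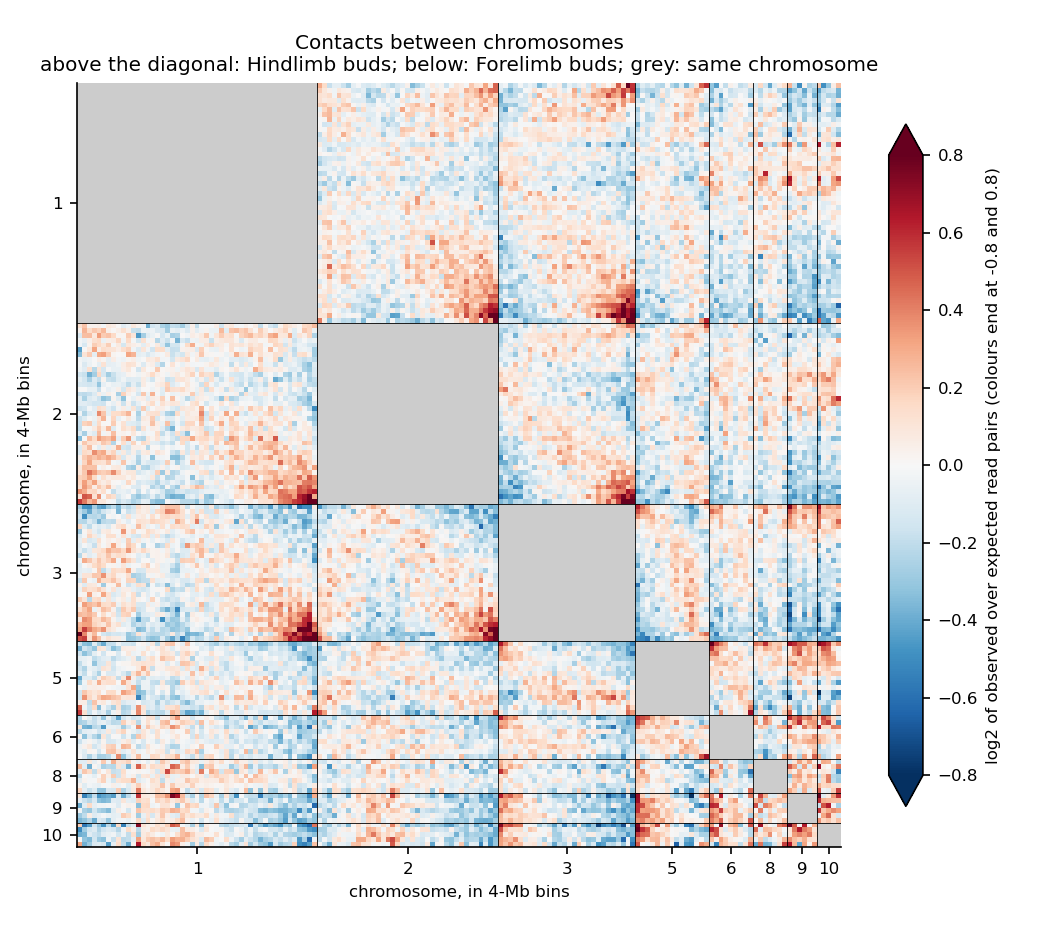
Log2 of observed over expected read pairs between bins of 4 Mb along the 8 chromosomes (both axes), with the hindlimb library above the diagonal and the forelimb library below it, red above and blue below expected, and grey for contacts within a chromosome. Red corners show where the last parts of chr1, chr2 and chr3 meet (30.8% of the 2-Mb bin pairs in their last 20 Mb were preferred), and blue fields where these parts meet chr9 and chr10.

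The last bin of chr2 and chr3:104000001-106000000 took part in 5 of the 10 highest bin pairs that were not neighbours, among them the last ends of chr1 and chr2 given above. The bin of chr3 met the last bin of chr2 with 283 hindlimb read pairs (ratio 2.70) and 256 forelimb read pairs (2.80). It met the last bin of chr1 with 364 and 316 (2.69 and 2.67) and the first bin of chr1 with 333 and 263 (2.87 and 2.65). Away from any end, chr1:190000001-192000000 met chr3:102000001-104000000 with 173 and 152 read pairs (2.68 and 2.59), and these bins lie 4.20 and 7.30 Mb from their ends. Chr3:4000001-6000000 met the first bin of chr10 with 151 and 124 (2.32 and 2.23). The first bin of chr10 had 23 preferred partners, the most of any bin, and 16 was the most for an interior bin, chr1:190000001-192000000.

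The lowest bin pair joined chr3:92000001-94000000 to chr10:2000001-4000000, with 34 hindlimb read pairs against 75.9 expected (ratio 0.448, 0.310 to 0.626) and 30 forelimb read pairs against 67.0 (0.447, 0.302 to 0.639). The first bin of chr10 met chr3:82000001-84000000 with 29 and 19 read pairs (0.543 and 0.419). Chr1:52000001-54000000 met chr2:10000001-12000000 with 33 and 27 (0.553 and 0.520). The first bin of chr6 met chr2:118000001-120000000 with 26 and 20 (0.569 and 0.516), and the first bin of chr9 met chr5:46000001-48000000 with 39 and 26 (0.580 and 0.452). In 3 of these 5 pairs, which were picked for their low values, the first bin of a smaller chromosome met a later part of a longer one. The share of such pairs among all bin pairs was not computed, and 55 of the 106 avoided pairs held no end bin.

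The leading pattern of the map set the small chromosomes and the early parts of chr3, chr5 and chr6 apart from the last parts of chr1, chr2 and chr3. Each bin was given a score from the leading eigenvector of the log2 matrix, divided by its SD, with its sign set so that end bins are positive on average. All 12 bins of chr9 and all 10 of chr10 were positive in both libraries, with means of 1.40 in each library on chr9 and 1.68 in hindlimb and 1.72 in forelimb on chr10. The last 25% of the bins of chr3 had a mean of -1.37 in hindlimb and -1.39 in forelimb, that of chr2 -1.22 and -1.19, and that of chr1 -1.02 and -1.04. The first 25% of chr3 had 0.94 and 0.89 and that of chr5 1.10 and 1.12. Inside the largest chromosomes the longest positive stretches were chr1:66000001-92000000 and chr2:38000001-70000000.

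**Figure D5:**
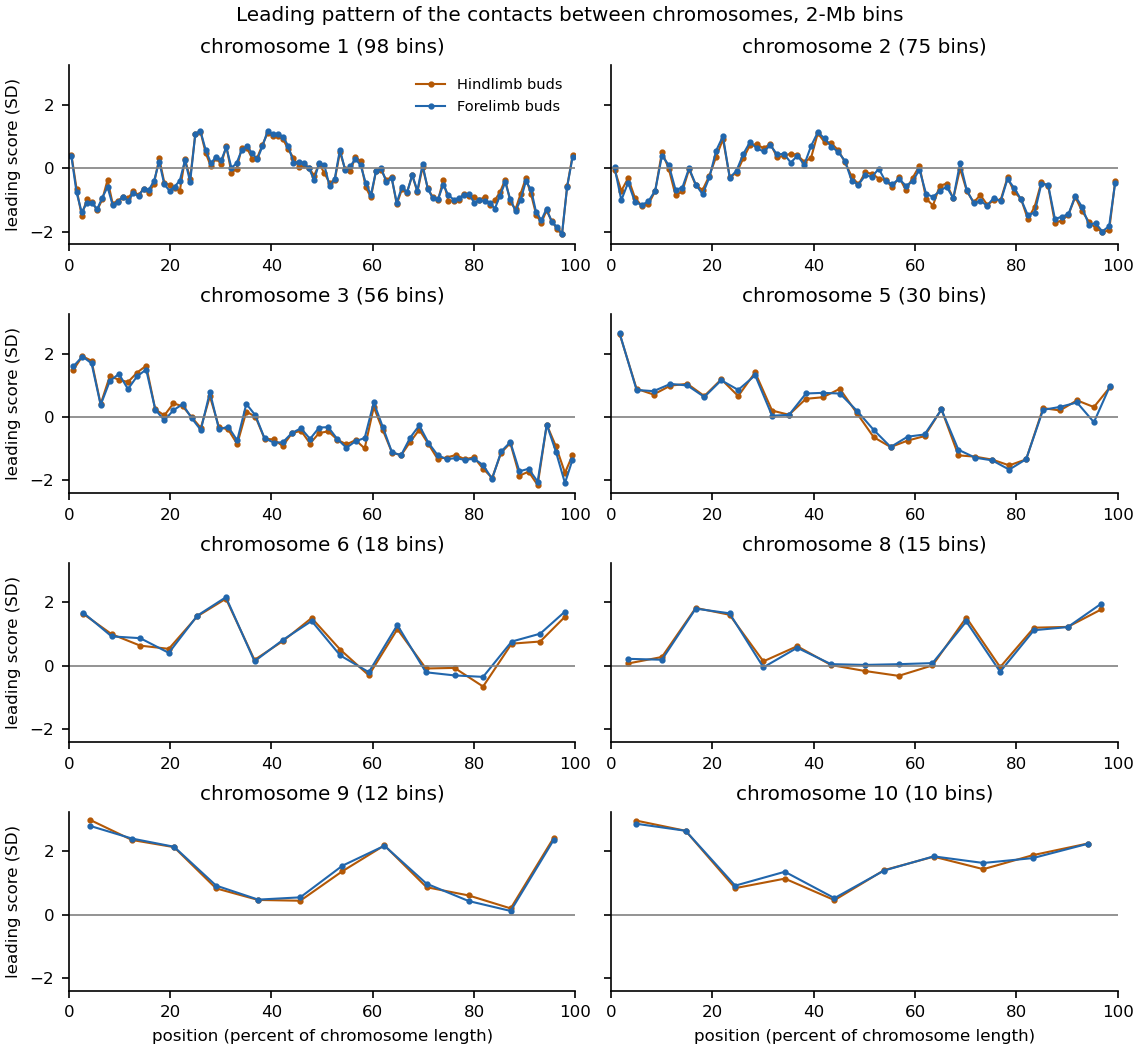
Leading score of each 2-Mb bin (vertical axis, in SD) along each of the 8 chromosomes (horizontal axis, percent of chromosome length), in the hindlimb (orange) and the forelimb library (blue), with no error bars since each library gives 1 score per bin. The lines of both libraries follow each other, chr9 and chr10 are positive throughout, and chr3 runs from positive to negative along its length.

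Classes taken from one library were then measured in the other. The 63 highest bins by the forelimb score met each other in the hindlimb library with a ratio of 1.19 (188982 read pairs, log2 0.25, 0.25 to 0.26), the 63 lowest met each other with 1.24 (1.23 to 1.24), and highest met lowest with 0.836 (0.832 to 0.839). With classes from the hindlimb score, the forelimb library gave 1.21, 1.24 and 0.826. Without end bins the hindlimb values were 1.16, 1.24 and 0.846 and the forelimb values 1.17, 1.23 and 0.836. The score moved with the share of a bin's contacts that reached another chromosome (Pearson r 0.66 in hindlimb and 0.64 in forelimb over 314 bins, which share their library and neighbours). With contacts among the 8 chromosomes per Mb its r was 0.57 and 0.53. The part of that share and of these contact totals in the pattern was not tested.

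A second pattern, looked at after the first, was highest in the last parts of the chromosomes. Its mean over the last 25% of the bins was 0.71 in hindlimb and 0.68 in forelimb on chr1, 0.91 and 0.96 on chr2, 1.12 and 1.06 on chr3 and 1.32 and 1.29 on chr5, while that of chr9 was -1.19 and -1.25. Classes of 63 bins from the other library gave 1.14 for highest with highest and 0.884 for highest with lowest in hindlimb, and 1.16 and 0.881 in forelimb. This score was higher in bins with more restriction fragments seen per Mb (r 0.43 in hindlimb and 0.42 in forelimb over 314 bins). With contacts among the 8 chromosomes per Mb its r was 0.23 and 0.22 over the 314 bins. On the 98 bins of chr1 alone that r was 0.72 and 0.74, and the r with fragments was 0.53 and 0.51. The part of fragment density and of contact totals in the pattern was not tested.

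The maps of both libraries agreed closely. Over the 28 chromosome pairs the log2 ratios had a Pearson r of 0.993 between hindlimb and forelimb (Spearman 0.979). Over the end pairs r was 0.925, over 9683 pairs of 4-Mb bins 0.755, and over the 39269 pairs of 2-Mb bins 0.490. The points share bins and totals, so these values are descriptions. Lanes 1 and 2 against lanes 3 and 4 of the same library gave 0.339 in hindlimb and 0.316 in forelimb over the 2-Mb bin pairs, and the same lane sets compared across the libraries gave 0.305 to 0.336. The libraries resembled each other about as closely as lanes of 1 library did. The leading score had r 0.993 between the libraries and the second score 0.984.

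Single bin pairs showed no difference between hindlimb and forelimb past the threshold. Of 39269 bin pairs, 0 (0%) passed an adjusted p of 0.05 in the two-sided exact binomial test, and 1763 (4.49%) had an unadjusted p under 0.05. The mean squared difference between the libraries, in units of the counting variance, was 1.00, while the departure of each library from the expectation was 2.43 in hindlimb and 2.33 in forelimb. The depth limits this comparison to large differences, since the median expectation of a bin pair was 63.6 read pairs in hindlimb and 55.7 in forelimb. Both libraries came from the same flow cell and 18 fragment pairs occurred in both.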

How the data were processed

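As the methods of the study state, reads were trimmed with cutadapt and aligned to galGal5 by Bowtie2 inside HiCUP, which assigned them to DpnII fragments, and the authors placed each mate at the middle of its fragment. The list of valid pairs deposited by the authors gives both positions and, per mate, the mapping quality as a score, with no normalization. The deposited matrices cover contacts within chromosomes and were not used.

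Pairs with both scores of 30 or more were counted here with awk and analysed with Python 3.11.15, numpy 2.4.6 and scipy 1.17.1. Libraries were grouped by the tissue in their labels. The 4 lanes held 606765 to 683187 hindlimb and 524115 to 602265 forelimb pairs among the 8 chromosomes, and 0.0133% and 0.0155% repeated a fragment pair. Bins with under 25% of the median total per Mb would have been left out, and 0 of 314 were. All 39269 bin pairs had an expectation of 20 or more. Expectations were fitted factors with same-chromosome cells excluded, so a preference also raises the factors and is somewhat understated. The matrix scores used log2 of counts plus 0.5. Procedures were also run on simulated data with planted preferences, drawn with counting error only, and the outcomes are not given here.

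Intervals of ratios are exact Poisson intervals, and libraries were compared by two-sided exact binomial tests against the share of the expectations. Regions named were the 4 highest and 4 lowest chromosome pairs, the 5 highest and 5 lowest end pairs by the mean log2 ratio of both libraries, and the 10 highest and 5 lowest bin pairs by the weaker library, leaving out neighbours. Others were chosen after their values were seen. The chromosomes, classes and lists were chosen with earlier results of these data known.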

Additional observations from a re-analysis of the deposited data

How the results depend on the processing

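The results recomputed here kept their direction under a mapping quality limit of 40 or none and with fragment pairs counted once. They also kept it in each lane alone, and with bins kept at 10% or 50% of the median coverage. No ratio among them moved beyond counting error. The r over 2-Mb bin pairs moved, to 0.459 at a limit of 40 and 0.519 with no limit. Counts of pairs were held only to a factor of 1.5 of the main count, and all stayed within it. Directions by chromosome pair and size class turned only with another expectation. With the plain product of the totals, whose construction leaves room for same-chromosome contacts, 5 chromosome pairs were above and 23 below 1 in both libraries, and the mean log2 ratio turned to -0.13 for chr9-chr10, -0.19 for chr6-chr9, -0.25 for chr8-chr9 and -0.27 for chr8-chr10. The size classes were then 1.17 in hindlimb and 1.17 in forelimb among chr1, chr2 and chr3, 0.837 and 0.837 among the smaller chromosomes, and 0.936 and 0.934 between them. End pairs had 1.26 and 1.28, 539 bin pairs were preferred and 554 avoided, and r was 0.666 over bin pairs and 0.997 over chromosome pairs.

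Other expectations for the size classes were tried after seeing the data. Totals with all chromosomes gave 1.13 and 1.13 among chr1, chr2 and chr3, and 0.889 in hindlimb and 0.885 in forelimb among the smaller ones. Between the classes they gave 0.944 and 0.942. Like the plain product, this was an unfitted product scaled to the same sum. The cause of its difference from the fitted values was not tested. The product of lengths, which ignores the totals, gave 0.872 and 0.880, 1.46 and 1.44, and 1.05 and 1.04 for the same classes. Without end bins they were 1.01 and 1.01, 1.06 and 1.06, and 0.981 and 0.981.

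The ratio of end pairs was 1.71 in hindlimb and 1.77 in forelimb with bins of 1 Mb, 1.14 and 1.14 with bins of 4 Mb, and 1.39 in hindlimb when scaled within chromosome pairs. It was 1.35 and 1.37 without chr1, 1.38 and 1.39 without chr2, 1.48 and 1.51 without chr3, 1.38 and 1.40 without chr5, 1.48 and 1.51 without chr8, and 1.39 and 1.40 without chr10, while chr6 or chr9 left out moved it within counting error. Bins of 1 Mb gave 531 preferred and 353 avoided bin pairs and an r of 0.526, bins of 4 Mb 46, 3 and 0.755. A ratio of 2 gave 23 preferred and 1 avoided. An adjusted two-sided exact Poisson p under 0.05 in both libraries gave 471 and 60. Between the libraries, 7 chromosome pairs passed with the Fisher exact test of raw counts, which keeps differences in chromosome totals, against 0 with fitted expectations.

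For the leading pattern, bins of 1 Mb gave 1.21 in hindlimb and 1.22 in forelimb for highest with highest and 0.824 and 0.818 for highest with lowest. The correlation matrix gave 1.22 and 1.22 for lowest with lowest. Without end bins, added after seeing the data, highest with highest had 1.16 and 1.17 and highest with lowest 0.846 and 0.836. No paired analysis was possible because each group has 1 library.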
